A study of Mus musculus with 9 samples.

Results

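The phagocyte NADPH oxidase and the enzymes that clear its products were followed in mouse peritoneal macrophages, as 8 genes out of the 55335 in the deposited expression table. The 8 were taken by gene symbol with no cut on their values, though earlier results of these data were known. They are the oxidase subunits Cybb, Cyba, Ncf1 and Ncf4, the superoxide dismutases Sod1, Sod2 and Sod3, and the catalase gene Cat. Each symbol matched 1 row. All cells were held in culture medium for 1 h and then received lipopolysaccharide (LPS, a bacterial cell wall component that activates macrophages) at 1 µg/mL for 4 h. The LPS group had nothing else, the LPS+EtOH group also had 5% ethanol, and the LPS+CPZ group also had 100 µM of an agent that the labels call CPZ and do not spell out. Each group had 3 RNA-seq libraries, each prepared from RNA of 3 samples mixed at equal amounts. Strain, sex and age are not in the labels, nor whether the pools came from separate animals, so p-values measure the spread between pools. Neither unstimulated cells nor a vehicle group for CPZ was analysed here, so every value below is a level or a difference under LPS.

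The phagocyte oxidase is a membrane flavocytochrome that passes electrons from NADPH to oxygen and so makes superoxide. Its catalytic subunit gp91phox (Cybb) is held stable by p22phox (Cyba). The complex is activated when cytosolic subunits and a Rac GTPase join it at the membrane. The cytosolic subunits include p47phox (Ncf1) and p40phox (Ncf4). Superoxide dismutases turn superoxide into hydrogen peroxide, Sod1 in the cytosol, Sod2 in mitochondria and Sod3 outside the cell. Catalase breaks hydrogen peroxide down to water and oxygen, mainly in peroxisomes. In macrophages and neutrophils the oxidase is a main weapon against engulfed microbes, and Sod2 is a well-known target of NF-κB.

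Promoter sequence was looked up for the members because several of them moved in opposite directions within the same libraries. The RefSeq table (build GRCm38.p6, windows of 300 bases from 250 before to 50 after the gene start) held 6 of the 8 members, without Ncf4 and Sod3. The 150 bases before the start are printed for Cybb (chrX:9469325-9469474, minus strand), Cyba (chr8:122432941-122433090, minus strand), Sod2 (chr17:13007689-13007838, plus strand), Cat (chr2:103485154-103485303, minus strand) and Sod1 (chr16:90220612-90220761, plus strand), each 5′ to 3′ along its gene. In the first 4 sequences, capitals mark either-strand matches to a loose NF-κB site pattern (GGG and CC with any 5 bases between). In Sod1 they mark the antioxidant response element core TGACNNNGC, which lies on the opposite strand.
Cybb: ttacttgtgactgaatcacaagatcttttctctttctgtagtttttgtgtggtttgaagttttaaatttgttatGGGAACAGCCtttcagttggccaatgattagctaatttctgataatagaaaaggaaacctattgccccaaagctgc
Cyba: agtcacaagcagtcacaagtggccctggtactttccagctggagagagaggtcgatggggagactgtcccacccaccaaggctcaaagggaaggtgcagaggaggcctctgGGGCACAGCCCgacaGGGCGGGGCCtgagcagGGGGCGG
Sod2: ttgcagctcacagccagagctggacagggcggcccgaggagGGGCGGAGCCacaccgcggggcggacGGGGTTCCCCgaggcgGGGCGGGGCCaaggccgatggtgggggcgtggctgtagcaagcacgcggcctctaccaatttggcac
Cat: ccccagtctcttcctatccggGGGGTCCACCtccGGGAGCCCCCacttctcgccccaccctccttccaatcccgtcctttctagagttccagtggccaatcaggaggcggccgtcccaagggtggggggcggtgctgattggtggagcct
Sod1: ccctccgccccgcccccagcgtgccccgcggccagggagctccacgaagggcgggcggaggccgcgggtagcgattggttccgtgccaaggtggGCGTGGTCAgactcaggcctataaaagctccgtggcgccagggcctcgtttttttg
The last match in Cyba runs past the gene start and is printed in part.

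Cybb had the most AT-rich of the 6 matched windows. Its 300 bases held 35.3% G and C, against a median of 52.7% over 32851 mouse promoter windows, and 3.98% of the windows were lower. The windows of Cyba (60.7%), Cat (62.0%), Sod2 (64.3%) and Sod1 (66.7%) lay above that median, and Ncf1 (54.0%) lay near it. The loose NF-κB pattern began at 5 places in Cyba, 4 in Ncf1, 3 in Sod2 and in Cat, and 1 in Cybb and in Sod1. A place that matches on both strands counted as 1, overlapping places counted apart, and 50.8% of all windows held the pattern. That share is of windows with at least 1 match, so it gives no background for the numbers of places. TGACNNNGC occurred 1 time, in Sod1, and 12.4% of all windows held it. GAGGAA, the core bound by ETS factors such as PU.1, occurred 1 time each in Cybb, Sod2 and Cat, and 28.3% of all windows held it. These are letter matches only.

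The values are FPKM, that is, sequenced fragments normalised for gene length and library size. A gene counted as tested when it reached 1 FPKM in at least 3 libraries, which 11721 genes did, and 7 of the 8 members did (Sod3 did not). Changes are on the log2(FPKM + 1) scale from 1 limma fit over all 9 libraries, and a change was called at an adjusted p (Benjamini-Hochberg, over all tested genes) under 0.05. The deposited values summed to between 302126 and 363356 per library. Libraries of the same group correlated at 0.975 to 0.989 across genes and those of different groups at 0.736 to 0.885. As deposited, the median change of all tested genes was -0.82 for LPS+EtOH against LPS, -0.33 for LPS+CPZ against LPS, and 0.55 for LPS+CPZ against LPS+EtOH. Changes of the members are therefore also given under median-ratio scaling, which puts those medians at -0.01, -0.06 and 0.04.

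The labelled cell type was checked against its markers. Cd68, Cd14, Lyz2 and Adgre1 were well above 1 FPKM in all 9 libraries. Of the listed genes that mark resident peritoneal macrophages, Mertk and Gata6 stayed under 1 FPKM and Timd4 did not. Timd4 read 6.86 to 9.28 FPKM in LPS, 0.083 to 0.292 with ethanol and 0.652 to 1.16 with CPZ. It was called lower in both treated groups than in LPS. Summed FPKM over 10 macrophage markers was 1599 to 2056 in LPS, 2662 to 2989 with ethanol and 1057 to 1235 with CPZ. Of 8 tested macrophage markers, 2 were called higher and 5 lower in LPS+EtOH than in LPS, and likewise 2 and 5 in LPS+CPZ than in LPS, and Cd14 (mean 907 FPKM in LPS, 2177 with ethanol) had the largest share of the higher sum. Summed FPKM over 11 neutrophil markers was 3709 to 5307 in LPS, 43391 to 47974 with ethanol and 6287 to 6766 with CPZ, mostly S100a8 and S100a9, with Elane and Mpo at or near 0. All 9 tested neutrophil markers were called higher in LPS+EtOH than in LPS, and 3 were higher and 2 lower in LPS+CPZ. Over all tested genes, 19.0% were called higher and 64.6% lower in LPS+EtOH than in LPS, and 20.7% and 48.4% in LPS+CPZ. The macrophage counts in LPS+EtOH lie near these shares. Summed FPKM over 5 B cell markers was 398 to 607 in LPS, 32.0 to 50.5 with ethanol and 126 to 167 with CPZ. Neutrophils and B cells also carry subunits of the phagocyte oxidase, and the part of these cells in the results was not tested. Summed FPKM over 5 red blood cell genes was 34788 to 107451 in LPS, 608 to 747 with ethanol and 153 to 349 with CPZ. In bulk RNA, fewer cells of a type and less RNA per cell cannot be told apart.

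In LPS+EtOH the partners of the membrane flavocytochrome moved in opposite directions: Cybb fell 4.97-fold while Cyba rose 3.25-fold, and the cytosolic subunits Ncf1 and Ncf4 and the dismutases Sod1 and Sod2 rose as deposited (Sod1 was at -0.01 with globin genes left out). Of the 7 tested members, 5 were called higher than in LPS and 2 (Cybb and, with a sign that depends on the scaling, Cat) lower, where 19.0% and 64.6% of all tested genes were called. Under median-ratio scaling 6 were higher and 1 (Cybb) lower, with 39.9% and 40.1% of all genes, because Cat changed sign. The members' median change was 0.64 as deposited and 1.83 under median-ratio scaling.

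In LPS+CPZ against LPS, the oxidase subunits Cybb and Ncf1 fell 6.90-fold and 2.45-fold, Cyba rose 1.89-fold and Ncf4 was not called. Of the clearing enzymes, Cat rose 5.69-fold, Sod1 3.42-fold and Sod2 1.46-fold. Of the 7 tested members, 4 were called higher than in LPS and 2 lower, where 20.7% and 48.4% of all tested genes were called, and the counts of members were the same under median-ratio scaling, with 28.6% and 32.5% of all genes. Against LPS+EtOH, 2 members (Sod1 and Cat) were called higher and 5 lower, where 61.4% and 15.2% of all tested genes were called, and again with the same counts under median-ratio scaling, where 33.9% and 33.0% of all genes were called. All 3 comparisons draw on the same 9 libraries and each pair of them shares a group, so their values are set side by side below and not as independent evidence.

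**Figure D1:**
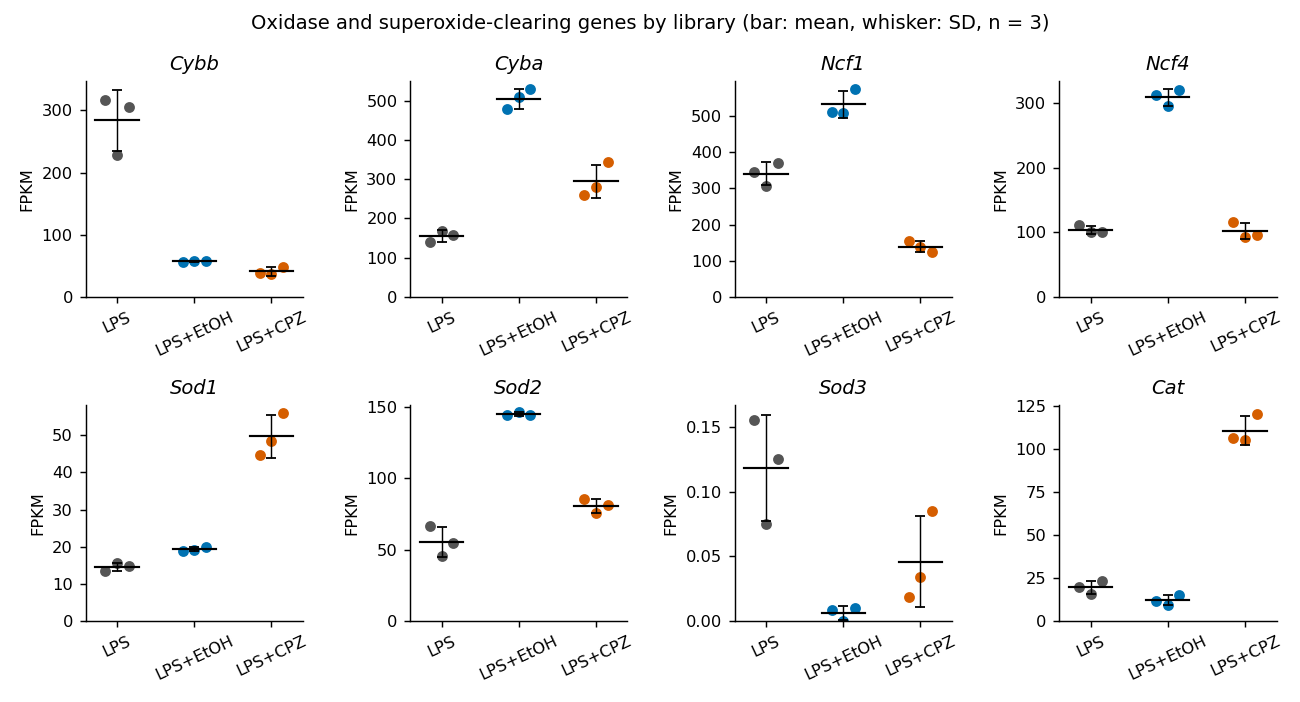
FPKM of each of the 8 genes (linear axes from 0 that differ between panels; 1 point a library, bar at the mean and whisker the SD of 3 libraries) in the LPS, LPS+EtOH and LPS+CPZ groups. Cybb is lower in both treated groups, Cyba and Sod2 are highest in LPS+EtOH, and Sod1 and Cat are highest in LPS+CPZ, while Sod3 stays under 0.2 FPKM throughout.

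Cybb (ENSMUSG00000015340) is the electron-carrying catalytic subunit. With LPS alone the 3 libraries read 317, 228 and 306 FPKM, with ethanol 56.9, 57.3 and 57.2, and with CPZ 38.5, 36.3 and 48.6. All 6 treated libraries lay below all LPS libraries, and the treated groups did not overlap with each other. The change against LPS was -2.28 ± 0.16 (SE; limma adjusted p = 2.87e-07) in LPS+EtOH and -2.75 ± 0.16 (adjusted p = 2.83e-07) in LPS+CPZ. Under median-ratio scaling these were -1.10 and -2.39, so the size of the fall in LPS+EtOH depended on the scaling and its direction did not. Between the treated groups Cybb was lower in LPS+CPZ by a change of -0.48 ± 0.16 (limma adjusted p = 0.0170), or -1.29 under median-ratio scaling, and the call as deposited was lost without LPS+CPZ replicate 1 (-0.43) or replicate 2 (-0.39). By level, Cybb ranked 120 of 11721 tested genes in LPS, 692 with ethanol and 934 with CPZ.

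Cyba (ENSMUSG00000006519) encodes p22phox, the partner that binds gp91phox in the membrane. It read 139.8, 169 and 158 FPKM in LPS, 478, 508 and 529 with ethanol, and 261, 279 and 343 with CPZ. No 2 groups overlapped, with LPS lowest and LPS+EtOH highest. The change was 1.70 ± 0.14 in LPS+EtOH (limma adjusted p = 9.69e-07) and 0.91 ± 0.14 in LPS+CPZ (adjusted p = 0.000208) against LPS, and -0.79 ± 0.14 (adjusted p = 0.000472) between LPS+CPZ and LPS+EtOH. Median-ratio scaling gave 2.88, 1.27 and -1.62. In GENCODE M21 the predicted gene Gm20388 overlaps Cyba on the other strand, and it was listed at 0 in all 9 libraries.

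The ratio of Cybb to Cyba within a library is not moved by any scaling that multiplies a library by a single factor, though quantile scaling can move it. It was 2.27, 1.35 and 1.94 in LPS, 0.119, 0.113 and 0.108 with ethanol, and 0.148, 0.130 and 0.142 with CPZ. The LPS libraries stood apart from all 6 treated libraries, whose ratios lay under 0.15. Cybb made up 31.9% ± 3.25 (SD, n = 3) of the summed FPKM of the 4 oxidase members in LPS, 4.08% ± 0.187 with ethanol and 7.11% ± 0.747 with CPZ. The summed FPKM itself was 884 ± 70.2, 1403 ± 67.2 and 577 ± 31.3, so the sum was highest in LPS+EtOH, where the share of Cybb was lowest.

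Ncf1 (ENSMUSG00000015950) encodes p47phox, the organizer that is phosphorylated on activation and carries the cytosolic complex to the membrane. Its values were 345, 307 and 370.3 FPKM in LPS, 512, 509 and 574 with ethanol, and 155, 139 and 123 with CPZ. The groups did not overlap, with LPS+EtOH highest and LPS+CPZ lowest. Against LPS the change was 0.64 ± 0.14 (limma adjusted p = 0.00112) in LPS+EtOH and -1.29 ± 0.14 (adjusted p = 1.65e-05) in LPS+CPZ, and it was -1.93 ± 0.14 (adjusted p = 1.31e-06) between LPS+CPZ and LPS+EtOH. Median-ratio scaling gave 1.83, -0.93 and -2.76, while the rise in LPS+EtOH was not called under quantile scaling (0.18) or with globin genes left out (0.22). Gtf2ird2 overlaps Ncf1 on the other strand, and whether the counting used strand is not given in the sources used here. Gtf2ird2 read 4.75 to 5.29 FPKM in LPS, 21.2 to 24.0 with ethanol and 1.59 to 5.10 with CPZ.

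Ncf4 (ENSMUSG00000071715) encodes p40phox, which binds a phosphoinositide of the phagosome membrane. It was at 111, 101 and 101 FPKM in LPS, 313, 296 and 321 with ethanol, and 117, 93.7 and 96.0 with CPZ. LPS+EtOH stood above the other groups, and LPS and LPS+CPZ overlapped. The change was 1.56 ± 0.12 (limma adjusted p = 7.10e-07) for LPS+EtOH against LPS and -1.60 ± 0.12 (adjusted p = 2.20e-06) for LPS+CPZ against LPS+EtOH. For LPS+CPZ against LPS it was -0.03 ± 0.12 (limma adjusted p = 0.818), with a 95% interval from -0.31 to 0.24. Median-ratio scaling gave 2.75, -2.42 and 0.32 for these, and leaving out globin genes moved the last to -0.41, which was called. The ratio of Ncf1 to Ncf4 was 3.27 ± 0.343 (SD, n = 3) in LPS, 1.71 ± 0.0742 with ethanol and 1.36 ± 0.106 with CPZ.

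**Figure D2:**
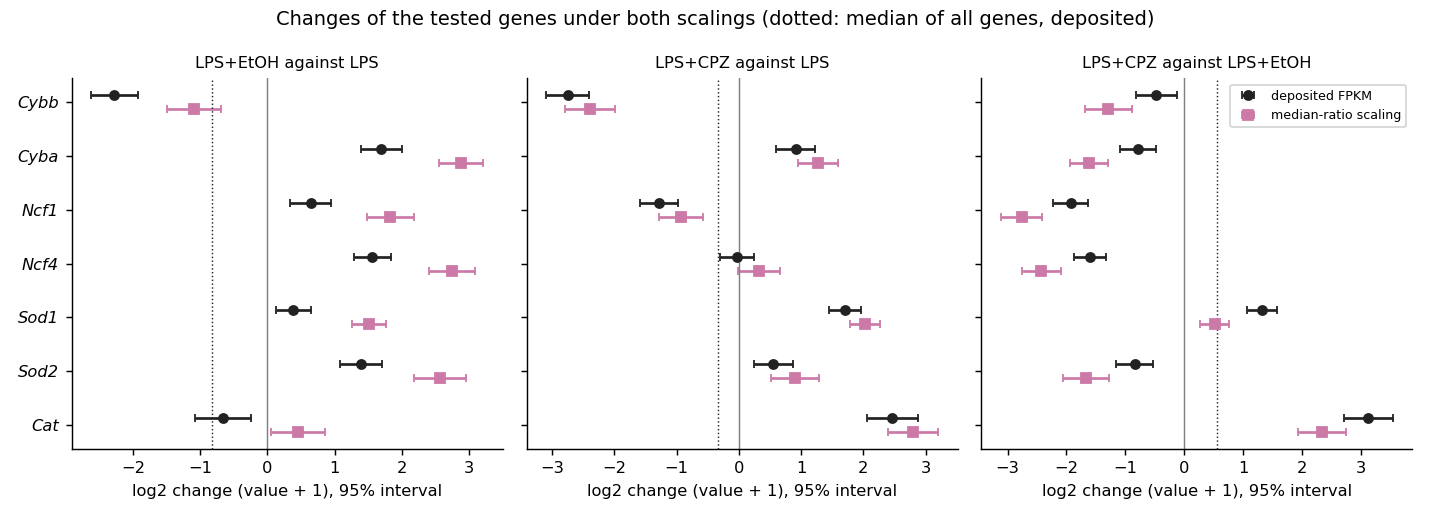
Log2 change of the 7 tested genes with its 95% interval in the 3 comparisons, for the deposited FPKM (circles) and after median-ratio scaling (squares); the dotted line is the median of all tested genes as deposited. Cybb lies below 0 in every panel and under both scalings, while Cat in LPS+EtOH against LPS lies below 0 as deposited (-0.66) and above 0 after median-ratio scaling (0.46).

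Sod2 (ENSMUSG00000006818), the mitochondrial manganese dismutase, read 66.7, 45.3 and 54.3 FPKM in LPS, 144, 147 and 145 with ethanol, and 85.6, 75.8 and 80.9 with CPZ. The groups did not overlap, and LPS was lowest. Against LPS it rose by 1.39 ± 0.14 (SE; limma adjusted p = 4.38e-06) in LPS+EtOH and by 0.55 ± 0.14 (adjusted p = 0.00535) in LPS+CPZ. Under median-ratio scaling these were 2.57 and 0.90, and the latter rise was not called with globin genes left out (0.18). Between LPS+CPZ and LPS+EtOH the change was -0.84 ± 0.14 (limma adjusted p = 0.000320), or -1.66 under median-ratio scaling.

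Sod1 (ENSMUSG00000022982), the cytosolic copper-zinc dismutase, read 13.3, 15.5 and 14.9 FPKM in LPS, 18.9, 19.1 and 20.0 with ethanol, and 44.8, 48.5 and 56.1 with CPZ. LPS+CPZ stood far above both other groups. Against LPS, Sod1 changed by 1.70 ± 0.12 (SE; limma adjusted p = 9.57e-07) in LPS+CPZ (2.03 under median-ratio scaling), and LPS+CPZ exceeded LPS+EtOH by 1.32 ± 0.12 (adjusted p = 4.95e-06), a margin that narrowed to 0.52 under median-ratio scaling. The smaller change in LPS+EtOH against LPS, 0.39 ± 0.12 (limma adjusted p = 0.00979), depended on the scaling: it was 1.51 under median-ratio scaling, 0.29 and not called after TPM scaling, and -0.01 with globin genes left out. Scaf4 overlaps Sod1 on the other strand and read 14.3 to 16.9 FPKM in LPS, 4.03 to 6.0 with ethanol and 13 to 14.2 with CPZ.

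The dismutases stood in different proportions in the 3 groups. Within each library the ratio of Sod2 to Sod1 was 5.01, 2.93 and 3.65 in LPS, 7.65, 7.68 and 7.25 with ethanol, and 1.91, 1.56 and 1.44 with CPZ. The ratio was highest with ethanol and lowest with CPZ, and no 2 groups overlapped. The log2 of this ratio, taken without a pseudocount, differed by 1.00 for LPS+EtOH against LPS, -1.21 for LPS+CPZ against LPS and -2.21 for LPS+CPZ against LPS+EtOH. Each had an exact two-sided permutation p of 0.1, the smallest that 3 against 3 libraries allow. The LPS+EtOH value was 0.37 under quantile scaling, with an exact permutation p of 0.3, against 0.1 as deposited.

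Which dismutase had the higher level depends on the gene length used. Where a value carried more than 6 decimals, it became a whole number at 6 decimals when multiplied by the gene's merged exon length in GENCODE M21, for 13887 of 14151 genes checked (98.1%, tolerance 0.05). The 6 members whose values carry more than 6 decimals were whole on this scale, and the check does not apply to Sod3 and Cat. The merged exons of Sod1 span 3970 bases against 641 for its longest coding transcript, and those of Sod2 span 10008 against 5861. Rescaled to the longest coding transcript, mean Sod1 would read 90.2, 119.5 and 308 FPKM in LPS, LPS+EtOH and LPS+CPZ, and mean Sod2 94.6, 248 and 138. The ratio of mean Sod2 to mean Sod1 then goes from 3.81 to 1.05 in LPS, from 7.52 to 2.07 in LPS+EtOH and from 1.62 to 0.447 in LPS+CPZ, where Sod1 becomes the higher of the pair. The fold between a gene's group means is not affected by this length, while its change in log2(FPKM + 1) can shift through the added 1.

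Sod3 (ENSMUSG00000072941), the secreted dismutase, was close to absent. It read 0.156, 0.0747 and 0.125 FPKM in LPS, 0.00814, 0 and 0.00985 with ethanol, and 0.0182, 0.0339 and 0.0853 with CPZ. The LPS+EtOH libraries lay below those of both other groups, and LPS and LPS+CPZ overlapped. At these levels it did not enter the test. With no filter on low values the change for LPS+EtOH against LPS was -0.15 and was called, which made 3 members lower in that comparison.

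Cat (ENSMUSG00000027187), the catalase gene, read 19.4, 15.5 and 23.4 FPKM in LPS, 11.7, 9.16 and 15.1 with ethanol, and 106, 105 and 120.1 with CPZ. The lowest LPS+CPZ library was above every library of the other groups, and the highest LPS+EtOH library was just below the lowest of LPS. The change was 2.46 ± 0.19 (SE; limma adjusted p = 1.84e-06) for LPS+CPZ against LPS and 3.12 ± 0.19 (adjusted p = 5.40e-07) for LPS+CPZ against LPS+EtOH, with 2.80 and 2.34 under median-ratio scaling. For LPS+EtOH against LPS it was -0.66 ± 0.19 (limma adjusted p = 0.00682) as deposited, -0.16 and not called under quantile scaling, and 0.46 under median-ratio scaling, where it was called in the other direction. Cat moved from rank 2106 of 11721 tested genes in LPS and 2322 in LPS+EtOH to 355 in LPS+CPZ. The ratio of Cat to Sod1 within a library was 1.34 ± 0.300 (SD, n = 3) in LPS, 0.620 ± 0.139 with ethanol and 2.23 ± 0.126 with CPZ.

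**Figure D3:**
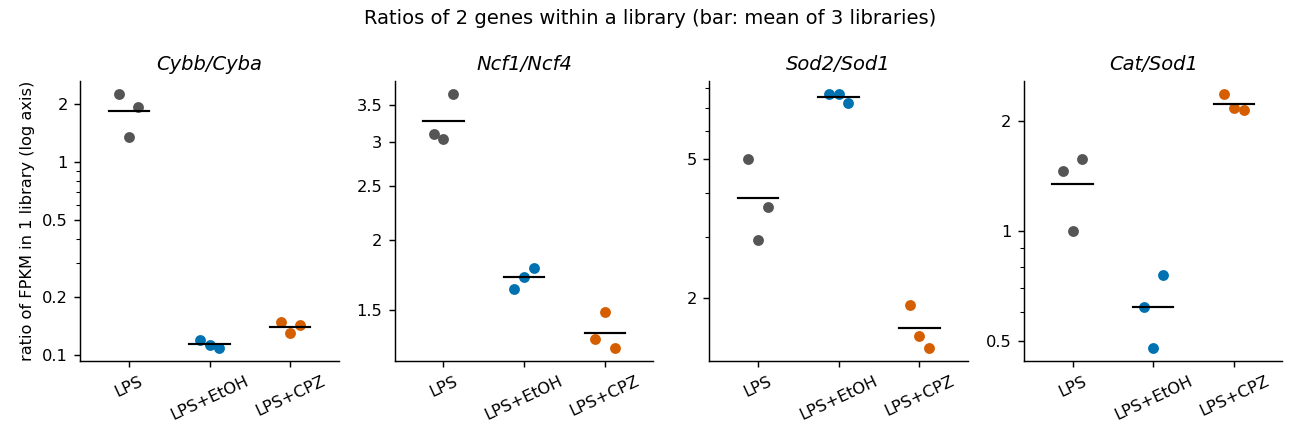
FPKM ratios of 4 gene pairs within each library (log axes that differ between panels; 1 point a library, bar at the mean of 3). Cybb to Cyba is 1.35 to 2.27 in LPS and under 0.15 in all treated libraries, and Sod2 to Sod1 is highest in LPS+EtOH (7.25 to 7.68) and lowest in LPS+CPZ (1.44 to 1.91).

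The order of levels within a group, in deposited FPKM per merged exon length, differed between the groups. In LPS it ran from Ncf1 and Cybb, whose libraries overlapped, through Cyba, Ncf4, Sod2, Cat and Sod1 to Sod3. In LPS+EtOH, Ncf1 and Cyba overlapped at the top, followed by Ncf4, Sod2, Cybb, Sod1, Cat and Sod3. In LPS+CPZ, Cyba led, followed by Ncf1, then Cat and Ncf4 (overlapping), Sod2, then Sod1 and Cybb (overlapping), and Sod3. The order depends on the gene lengths given above.

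Across the 9 libraries, the most similar patterns among the tested members were those of Cyba and Sod2, with a root mean square difference of 0.275 in log2(FPKM + 1) after centring each gene. Ncf4 and Sod2 followed at 0.344, and Sod1 and Cat differed by 0.770. The flavocytochrome partners Cybb and Cyba differed by 1.81, and the farthest pair was Cybb and Cat at 2.19.

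Among 4520 other genes compared, the patterns nearest to Cybb were those of the chemokine gene Ccl9 (0.227), the integrin gene Itgal (0.241) and Rassf4 (0.267). Mean Ccl9 was 50.8 FPKM in LPS, 10.3 with ethanol and 7.89 with CPZ. Nearest to Sod2 were Cln3 (0.137), the proton pump gene Atp6v0e (0.140) and the formyl peptide receptor gene Fpr2 (0.145), whose means were 243, 758 and 361 FPKM in the same order. Nearest to Cat were the chaperone gene Hsp90aa1 (0.276), Pgm2 (0.289) and the translation repressor gene Eif4ebp1 (0.305). Mean Hsp90aa1 was 104, 58.4 and 598 FPKM.

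Of 17 other oxidase genes, 8 were tested. The non-phagocyte enzymes Nox1, Nox3, Nox4, Duox1 and Duox2, with Duoxa1, Duoxa2, Noxo1 and Noxa1, stayed under 0.2 FPKM in every library. In LPS+EtOH against LPS, 3 of the 8 rose and 4 fell, with a median of -0.17, and under median-ratio scaling 6 rose and 1 fell. Over all tested genes 19.0% were called higher and 64.6% lower, with a median of -0.82, or 39.9% and 40.1% under median-ratio scaling. In LPS+CPZ against LPS, 1 rose and 3 fell (median -0.20), against 20.7% and 48.4% of all genes as deposited (median -0.33). Under median-ratio scaling 2 rose and 1 fell, against 28.6% and 32.5% of all genes. In LPS+CPZ against LPS+EtOH, 4 rose and 3 fell (median 0.03), against 61.4% and 15.2% of all genes as deposited (median 0.55). With median-ratio scaling 1 rose and 5 fell, against 33.9% and 33.0% of all genes.

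Rac2 is a Rac GTPase of phagocytes. It read 174, 187 and 196 FPKM in LPS, 392, 334 and 406 with ethanol, and 143, 100.4 and 110.1 with CPZ, and the groups did not overlap. It changed by 1.02 ± 0.15 in LPS+EtOH (limma adjusted p = 8.66e-05) and by -0.67 ± 0.15 in LPS+CPZ (adjusted p = 0.00261) against LPS, and the latter was -0.31 and not called under median-ratio scaling. The rise in LPS+EtOH was 2.20 under that scaling. Between LPS+CPZ and LPS+EtOH Rac2 differed by -1.68 ± 0.15 (adjusted p = 5.57e-06), or -2.51. Rac1 was not called in any comparison as deposited. Under median-ratio scaling it was called in LPS+EtOH against LPS (1.93) and in LPS+CPZ against LPS+EtOH (-1.12), and LPS replicate 3 (10.5 FPKM, against 33.9 and 31.9) stood apart.

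Vav1, an exchange factor for Rac, rose by 1.51 ± 0.13 in LPS+EtOH (limma adjusted p = 1.57e-06) and by 0.96 ± 0.13 in LPS+CPZ (adjusted p = 0.000110) against LPS, and differed by -0.56 ± 0.13 between LPS+CPZ and LPS+EtOH. Median-ratio scaling gave 2.69, 1.31 and -1.38 for Vav1. Prkcb, a protein kinase C gene, fell by 2.14 in LPS+EtOH and by 1.00 in LPS+CPZ, and was 1.13 higher in LPS+CPZ than in LPS+EtOH, with -1.17, -0.66 and 0.51 under median-ratio scaling. Prkcd, the kinase that phosphorylates p47phox in many phagocytes, changed by 0.36 in LPS+EtOH against LPS (1.54 under median-ratio scaling), by -0.54 in LPS+CPZ against LPS (-0.18 and not called under median-ratio scaling) and by -0.89 against LPS+EtOH (-1.72 under median-ratio scaling). Hvcn1, the proton channel that balances the charge the oxidase moves, was -0.72 in LPS+EtOH against LPS as deposited and 0.43 under median-ratio scaling. Rap1a, a small GTPase found with the flavocytochrome, behaved likewise, at -0.69 and 0.46. Rap1a was also called in opposite directions for LPS+CPZ against LPS+EtOH, at 0.37 as deposited and -0.43 under median-ratio scaling. Between LPS+CPZ and LPS+EtOH, Hvcn1 was 0.66 higher as deposited and -0.15 under median-ratio scaling, and Cybc1, which encodes a chaperone of the flavocytochrome, was 0.78 higher as deposited and 0.04 under median-ratio scaling.

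**Figure D4:**
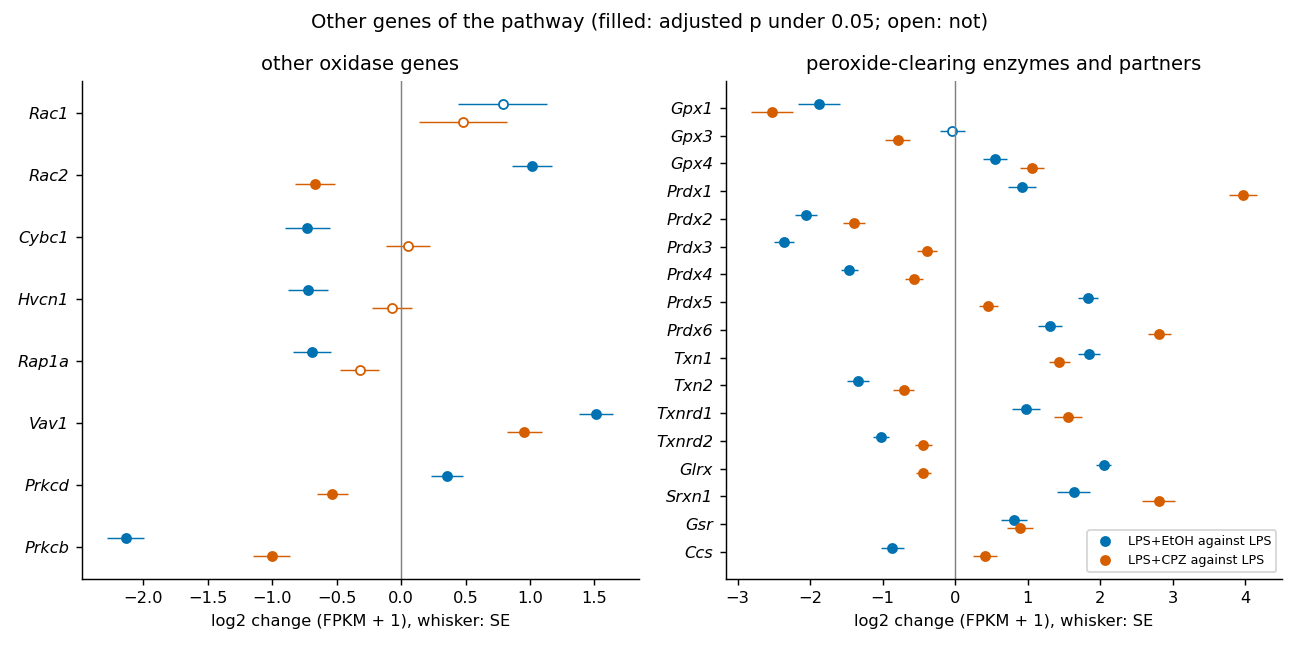
Log2 change in deposited FPKM against LPS (whisker: SE) in LPS+EtOH and LPS+CPZ. Drawn are the 8 other tested oxidase genes and 17 tested peroxide-clearing genes and partners, Ccs included. Filled points have an adjusted p under 0.05. Vav1 is higher in both treated groups, and Prdx1 has the highest value in LPS+CPZ (3.97). Under median-ratio scaling, which is not drawn, Cybc1, Hvcn1, Rap1a and Gpx3 change sign in LPS+EtOH, and Hvcn1 and Rap1a in LPS+CPZ.

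Catalase shares its substrate with peroxiredoxins and glutathione peroxidases. A list of 19 genes held these, their thioredoxin, glutaredoxin and reductase partners, and Ccs, which encodes the copper chaperone of Sod1. Of the 19 genes 17 were tested, Ccs among them. In LPS+CPZ against LPS 9 rose and 8 fell (median 0.41), or 9 and 4 under median-ratio scaling. In LPS+EtOH against LPS 9 rose and 7 fell (median 0.55), or 10 and 6. In LPS+CPZ against LPS+EtOH 11 rose and 4 fell (median 0.58), or 6 and 6, where 61.4% and 15.2% of all tested genes were called and their median was 0.55, so the counts there lie near the background. For LPS+EtOH against LPS the background was 19.0% higher and 64.6% lower, and for LPS+CPZ against LPS 20.7% and 48.4%. Under median-ratio scaling these were 39.9% and 40.1%, and 28.6% and 32.5%. For LPS+CPZ against LPS+EtOH that scaling gave 33.9% and 33.0%.

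Prdx1, a cytosolic peroxiredoxin, was called higher in LPS+CPZ, as Cat was. It read 160.3, 160.0 and 116 FPKM in LPS, 252, 241 and 339.6 with ethanol, and 2123, 1997 and 2759 with CPZ, with no overlap between groups. It rose by 3.97 ± 0.20 (limma adjusted p = 1.29e-07) in LPS+CPZ against LPS and by 3.04 ± 0.20 (adjusted p = 8.38e-07) against LPS+EtOH, or 4.33 and 2.22 under median-ratio scaling. Prdx6 rose by 2.82 ± 0.16 (adjusted p = 2.99e-07) and Srxn1, the sulfiredoxin that reactivates oxidized peroxiredoxins, by 2.81 ± 0.23 (adjusted p = 3.32e-06) in LPS+CPZ against LPS. In the same comparison Gpx1, a glutathione peroxidase, changed by -2.53 ± 0.29 (adjusted p = 2.77e-05), from 67.2, 50.9 and 119.7 FPKM in LPS to 10.2, 10.7 and 16.1 in LPS+CPZ. Prdx2 changed by -1.39 and the mitochondrial thioredoxin gene Txn2 by -0.71 (-0.40 under median-ratio scaling). Prdx1, Prdx6, Srxn1, Gpx1, Prdx2 and Txn2 were called in the same directions in LPS+EtOH against LPS. Their changes there were 0.92, 1.31, 1.63, -1.88, -2.05 and -1.34. Median-ratio scaling gave 2.11, 2.42, 2.82, -0.72, -1.19 and -0.47. Cat was called lower in LPS+EtOH as deposited (-0.66) and higher under median-ratio scaling (0.46).

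In LPS+EtOH against LPS, the genes with the smallest adjusted p among those that rose were the glutaredoxin gene Glrx (2.05 ± 0.10, limma adjusted p = 6.21e-08), Prdx5 (1.83) and the cytosolic thioredoxin gene Txn1 (1.84). Those that fell were the mitochondrial peroxiredoxin gene Prdx3 (-2.36 ± 0.14, adjusted p = 1.19e-07), Prdx2 (-2.05) and Prdx4 (-1.46), and under median-ratio scaling these were 3.19, 3.02, 3.03, -1.32, -1.19 and -0.77 in the same order. Prdx3 read 19.9, 24.3 and 21.3 FPKM in LPS and 3.87, 3.31 and 3.13 in LPS+EtOH. Mitochondrial Sod2 and mitochondrial Prdx3 thus moved in opposite directions in LPS+EtOH. Between LPS+CPZ and LPS+EtOH, Prdx3 was higher by 1.97 and Prdx6 by 1.51, while Glrx differed by -2.49, Prdx5 by -1.37 and Gpx3 by -0.75. Under median-ratio scaling these were 1.28, 0.70, -3.30, -2.20 and -1.22.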

How the data were processed

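Total RNA of 9 peritoneal macrophage pools was made into strand-specific libraries, per the labels' protocols. The authors deposited 1 table of FPKM values for 55335 genes, made, per the submitters' processing notes, with STAR and StringTie (versions not given in the sources used here) after quality checks in FastQC 0.11.2. Those notes name the human build hg38, whereas 55154 gene IDs of the table are mouse genes of GENCODE M21. Fragment counts could not be recovered from the FPKM steps, so depth is unknown and no counting interval is given.

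The 8 members, the gene lists and the tests were chosen with earlier results of these data known. Genes with at least 1 FPKM in 3 or more libraries were kept (11721), log2(FPKM + 1) was fitted by group with limma 3.58.1 in R 4.3.3 (eBayes with trend, two-sided), and p-values were adjusted over all tested genes by Benjamini-Hochberg. The fit was tested on simulated data. The alternatives were other pseudocounts, filters and scalings, variants of the fit, a replicate block and leaving out each library. Named genes were all members; from each of the other lists the up to 3 genes that rose and 3 that fell with the smallest adjusted p in a comparison, plus Rac1, chosen after its values were seen; and the 3 genes nearest in pattern to Cybb, Sod2 and Cat, with a mean of at least 5 FPKM. Lengths and overlaps came from GENCODE M21 and promoters from RefSeq (GRCm38.p6). A gene of the oxidase list is not reported here. The rescaling to coding transcripts was chosen after seeing the data.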

Additional observations from a re-analysis of the deposited data

How the results depend on the processing

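Of 441 values of single members under the alternatives run, 431 stayed on their side of the threshold with no called change turned. The 441 include variants of the fit, other filters and the loss of a library outside the comparison. These leave the log2 change as it is and can alter only its p-value. The change of Ncf4 in LPS+CPZ against LPS, not called as deposited, took either sign (-0.41 to 0.32). In LPS+EtOH against LPS, Cat reversed to 0.46 under median-ratio scaling and Sod1 to -0.012 with globin genes left out; the cause was not tested. Members called higher there were 3 with globin genes left out (against 5), and members called lower were 1 under median-ratio and 1 under quantile scaling (against 2).

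Over all tested genes, those higher in LPS+EtOH than in LPS numbered 2230 as deposited, 4673 under median-ratio and 3999 under quantile scaling. Those lower numbered 7566, and 4705, 5009 and, with a filter of at least 5 FPKM (fewer genes tested), 3770. Genes lower in LPS+CPZ than in LPS numbered 5674, and 3096 with that filter. In LPS+CPZ against LPS+EtOH, genes higher numbered 7195, and 3976 (median-ratio), 4465 (quantile) and 3764 (that filter), and genes lower 1785, and 3863 (median-ratio) and 2953 (quantile).

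Replicate numbers are shared between groups, but same-numbered libraries deviated together only weakly (correlations from -0.01 to 0.26). Libraries of other numbers gave -0.20 to 0.13, and the numbers were not taken as pairs. With the replicate number as a block, 2264 genes were higher and 7607 lower in LPS+EtOH than in LPS, 2459 and 5697 in LPS+CPZ than in LPS, and 7255 and 1831 in LPS+CPZ than in LPS+EtOH, and no call of a member changed. The depth of the libraries is unknown, so no counting error can be given for Sod3 and other low values.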
